A study of Homo sapiens with 8 samples.

Results

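The genes described here are the 39 homeobox genes of the HOXA, HOXB, HOXC and HOXD clusters, taken by name as every row whose symbol is HOX, a cluster letter A to D and a number. They are 39 of the 59050 gene symbols in the count tables. RNA-seq was run on 8 xenograft tumours, all grown from the established human lung cancer line H2122. The 4 parental tumours carried the line's own SMARCA4 genotype and the 4 knockout tumours came from cells with SMARCA4 knocked out, and all 8 received vehicle. The sources used here give neither the age or strain of the host mice nor whether the knockout cells were 1 clone, and nothing in them says that the replicates came from separate hosts. The p-values therefore measure only the spread between these tumours.

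HOX genes encode homeodomain transcription factors that give cells their position along the body axis. Within each cluster they lie in a row, with the low-numbered (anterior) genes at one end and the high-numbered (posterior) genes at the other, and genes with the same number in different clusters are paralogues. Polycomb proteins hold silent HOX genes in a repressed state, trithorax-type proteins keep active ones on, and retinoic acid opens the clusters from the anterior end during development. SMARCA4 (BRG1) is an ATPase of the SWI/SNF chromatin remodellers, which are known to oppose Polycomb. In adult lung, HOXA and HOXB genes of the anterior and central groups are the ones known for their expression.

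SMARCA4 itself was read first, as a check of the labels. Its level was 198 to 235 CPM (the usual depth-scaled count, here relative to the TMM-scaled library size) in parental tumours and 22.3 to 31.1 CPM in knockout tumours, a mean of 221 ± 16 against 27.3 ± 3.90 (SD, n = 4 each). The log2 fold change was -3.02 with an SE of 0.117 (edgeR adjusted p = 1.45e-07), and 12.4% of the parental mean remained. Gene counts totalled 19785922 to 23191698 per tumour. HOX genes held 0.00974% of the parental and 0.00924% of the knockout gene counts, so many of them rest on few reads. Of the 39 genes, 19 passed the filter on low counts and entered the test over 16219 genes. The other 20 did not, and 3 of those (HOXA13, HOXB13 and HOXD13) had no count in any tumour. For those 3, a count of 0 allows up to 3 counts per group, or 0.0350 CPM over the parental and 0.0354 CPM over the knockout libraries, for counting error only.

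The host compartment and the line's own markers were read beside the HOX genes. Summed fibroblast markers (10 of 10 with counts) ranged from 182 to 612 CPM (parental) and 346 to 608 CPM (knockout). COL1A1 alone averaged 353 ± 164 CPM (parental) and 447 ± 132 CPM (knockout, SD, n = 4 each), so that sum is mostly this gene. Endothelial markers (8 of 8) summed to 7.66 to 18.4 and 9.34 to 15.7 CPM. Leukocyte markers (8 of 8) summed to 7.53 to 69.3 and 12.8 to 30.0 CPM, and muscle markers (7 of 7) to 4.09 to 41.9 and 2.68 to 17.6 CPM. Parental tumour 2 had the highest fibroblast, leukocyte and muscle sums. Among these host markers LUM was called higher (33 counts over the parental and 1053 over the knockout tumours), VWF and MB lower, and CDH5 had 36 counts in parental and 0 in knockout tumours. Lung carcinoma markers (8 of 9 with counts) summed to 5757 to 6930 CPM (parental) and 4636 to 6238 CPM (knockout). Of these 9 genes, KRT7 and KRT19 were lower, and NKX2-1, a defining transcription factor of lung adenocarcinoma, was at 0 in all 8. The part of these cells, and of mouse reads counted as human, in the HOX values was not tested. In bulk tumours, fewer cells of a type and less RNA per cell cannot be told apart.

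Across the 4 clusters, HOXB expression was higher in the knockout tumours, while single posterior genes of HOXC and HOXD were lower. In the fit over all genes 4 HOX genes rose, all in HOXB (HOXB3, HOXB5, HOXB6 and HOXB9), and 1 fell, HOXC13. Of the 16219 genes tested, 27% changed, 13% higher and 14.1% lower. The 5 of 19 HOX genes called (26.3%) are a share near that background. By cluster the counts were 0 of 7 HOXA genes, 4 of 5 HOXB genes higher, 1 of 6 HOXC genes lower and 0 of 1 HOXD gene. The median log2 fold change of the tested genes was -0.21 in HOXA, 1.30 in HOXB and -0.26 in HOXC, beside 0.00 over all genes. HOXD had 1 gene in the test, HOXD8, at 0.23.

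**Figure D1:**
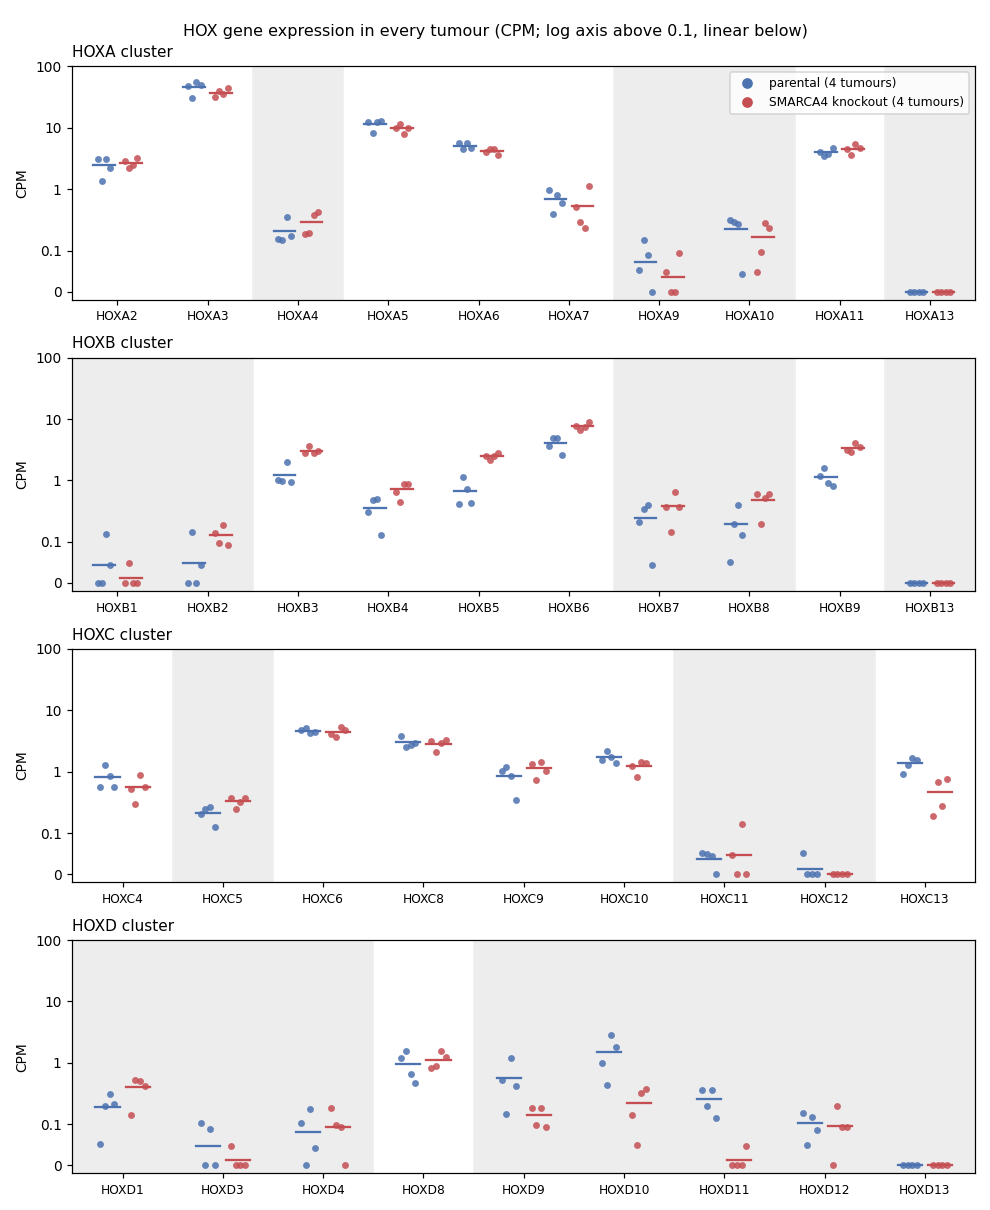
Expression of 38 HOX genes in every tumour, by cluster and in order of gene number (vertical axis: CPM, logarithmic above 0.1 and linear below). Points are tumours, short lines are group means (n = 4), and grey bands mark the 20 genes under the filter on low counts; the red knockout points lie above the blue parental points for HOXB3, HOXB5, HOXB6 and HOXB9, and below them for HOXA6, HOXC13, HOXD10 and HOXD11.

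The HOXA cluster (GRCh38, chr7:27092993-27200106, minus strand, 11 genes) gave most of the HOX signal. Its summed level averaged 72.2 ± 14.6 CPM (parental) and 61.5 ± 6.28 CPM (knockout), a ratio of 0.852, and the groups overlapped. It held 74.3% ± 5.92 of HOX counts in the parental group and 66.1% ± 3.36 in the knockout group (SD, n = 4 each). HOXA3, an anterior gene needed for pharyngeal organ development, was the most abundant HOX gene per length in both groups, at 10.7 ± 2.42 RPKM (CPM per kilobase of exon) in parental and 8.70 ± 1.26 RPKM in knockout tumours. Its parental values were 48.0, 31.1, 54.9 and 50.3 CPM and its knockout values 31.6, 39.2, 34.9 and 44.1 CPM. Parental tumour 2 alone was below the knockout tumours, so the groups overlapped. The log2 fold change of HOXA3 was -0.30 with an SE of 0.166 (edgeR adjusted p = 0.212), and without parental tumour 2 it was -0.45 and past the threshold (edgeR adjusted p = 0.0164).

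HOXA5, which is required for normal lung and airway development, followed HOXA3 at 6.69 ± 1.30 RPKM in parental and 5.77 ± 0.824 RPKM in knockout tumours. Its 95% interval for the log2 fold change ran from -0.58 to 0.15 around -0.21. HOXA6 was the third per length in both groups. It had 5.64, 4.54, 5.67 and 4.68 CPM in parental tumours and 4.02, 4.44, 4.43 and 3.64 CPM in knockout tumours. All 4 knockout values lay below all 4 parental ones, although the log2 fold change of -0.31 did not pass the threshold (SE 0.154, edgeR adjusted p = 0.162). Among all genes tested, the knockout tumours lay wholly below the parental ones in 15.3% and wholly above in 14%. HOXA6 shares 39.3% of its exon bases with the antisense gene HOXA-AS3, and without strand the reads of the pair cannot be told apart.

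HOXA2, HOXA7 and HOXA11 did not pass the threshold, and their groups overlapped. HOXA2, which patterns the pharyngeal arches, had a log2 fold change of 0.12 (95% interval -0.46 to 0.71). HOXA7 had -0.35 (-1.40 to 0.70), and between -0.98 without knockout tumour 4 and -0.10 without knockout tumour 3. It shares 62.5% of its exon bases with HOXA-AS3 on the other strand. HOXA11, a posterior gene of limb and uterus, had 0.18 (-0.21 to 0.57). Of the HOXA genes under the filter, HOXA4 had 3, 3, 8 and 4 counts in parental and 4, 4, 8 and 9 counts in knockout tumours. HOXA10 had 6, 6, 6 and 1 counts in parental and 1, 2, 6 and 5 counts in knockout tumours. Neither gene separated the groups, with exact two-sided permutation p-values of 0.171 and 0.429 over 4 against 4 tumours, a design whose smallest p is 0.0286. HOXA9, a leukaemia-associated posterior gene, had 6 counts over the parental and 3 over the knockout tumours.

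The HOXB cluster (chr17:48528526-48729178, minus strand, 10 genes) was the one whose summed level separated the groups. It stood at 6.84, 9.81, 9.96 and 5.14 CPM in parental tumours and at 17.9, 16.3, 19.1 and 20.1 CPM in knockout tumours. Every knockout tumour was above every parental one, and the ratio of means was 2.32 (7.94 ± 2.35 against 18.4 ± 1.63 CPM, SD, n = 4 each). Its share of all HOX counts was 8.44% ± 3.23 in parental and 19.8% ± 1.29 in knockout tumours. The summed level of all HOX genes was 96.5 ± 14.5 CPM (parental) and 93.1 ± 7.86 CPM (knockout), with overlapping groups. Of the host markers, the fibroblast, endothelial and leukocyte sums overlapped between the groups. LUM was higher (33 parental and 1053 knockout counts) in the knockout tumours. VWF, which passed the filter through its parental counts, was lower there (172 and 32 counts). Other markers of the same cell types went both ways. COL1A1 (29710 and 37965 counts) and PECAM1 (684 and 824 counts) were not called, and PDGFRB, under the filter, had 27 and 15 counts. Also under the filter, CDH5 had 36 and 0 counts, KDR 38 and 9, and DCN 9 and 24. The part of these cells in the HOXB values was not tested.

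HOXB3, an anterior gene of the hindbrain and pharyngeal region, had 1.04, 0.976, 2.01 and 0.935 CPM in parental tumours and 2.76, 3.66, 2.85 and 2.99 CPM in knockout tumours. The highest parental tumour, tumour 3, was still below the lowest knockout tumour. HOXB3 rose by 1.30 on the log2 scale (SE 0.270, edgeR adjusted p = 0.00423). It lies at chr17:48548870-48604912 and shares 7.94% of its exon bases with HOXB4 and HOXB6 on the same strand.

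HOXB5, a central gene expressed in developing lung mesenchyme, had 0.414, 1.12, 0.715 and 0.425 CPM in parental tumours and 2.52, 2.15, 2.47 and 2.80 CPM in knockout tumours. The groups were well apart, and the change was the largest of the tested HOX genes. HOXB5 rose by 1.89 on the log2 scale (SE 0.310, 95% interval 1.21 to 2.57, edgeR adjusted p = 0.000971), a 3.70-fold difference. Its locus is chr17:48591257-48593961, where 3.58% of exon bases overlap HOXB-AS3 on the other strand.

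HOXB6, the neighbour of HOXB5 and the most abundant HOXB gene per length, had 3.63, 4.93, 4.91 and 2.59 CPM in parental tumours and 7.80, 6.73, 7.51 and 8.82 CPM in knockout tumours. No knockout value reached down to the parental range. HOXB6 rose by 0.94 on the log2 scale (SE 0.205, edgeR adjusted p = 0.00564). In the order of RPKM, the parental mean of HOXB6 was 1.54 ± 0.433, within the spread of HOXA11 (1.73 ± 0.230) and HOXC8 (1.58 ± 0.294). In knockout tumours it was 2.96 ± 0.333, next to HOXA6 at 3.22 ± 0.297, from which it did not differ beyond the spread. HOXB6 (chr17:48595751-48604992) shares 16.6% of its exon bases with HOXB3 and 16.3% with HOXB-AS3.

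HOXB9, the posterior gene of the cluster with counts here, had 1.19, 1.61, 0.893 and 0.808 CPM in parental tumours and 3.08, 2.88, 4.06 and 3.55 CPM in knockout tumours. Again all 4 knockout tumours lay above the parental range. HOXB9 rose by 1.59 on the log2 scale (SE 0.250, 95% interval 1.05 to 2.14, edgeR adjusted p = 0.000716). Its exons (chr17:48621159-48626356) overlap no other annotated gene, and none of its 50-base windows occurs in a HOX gene of another cluster.

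The remaining HOXB genes had fewer reads. HOXB4, known for its role in blood stem cell expansion, had 6, 10, 11 and 3 counts in parental tumours and 14, 9, 19 and 19 counts in knockout tumours. The knockout tumour with 9 counts lay inside the parental range, and the log2 fold change of 1.02 did not pass the threshold (95% interval 0.12 to 1.91, edgeR adjusted p = 0.0895). HOXB8, under the filter, had 1, 4, 9 and 3 counts in parental and 13, 4, 11 and 13 counts in knockout tumours. The pooled ratio of HOXB8, knockout over parental, was 2.44 (exact 95% interval 1.36 to 4.58, counting error only), and the groups overlapped at knockout tumour 2. Without parental tumour 3, its highest parental tumour, that ratio was 3.83, and HOXB8 then passed both the filter and the threshold. The filter asks for fewer tumours in that setting, and HOXB8 passed it through its knockout counts. HOXB7 had 4, 7, 9 and 1 counts in parental and 8, 3, 14 and 8 in knockout tumours, a ratio of 1.59 (0.892 to 2.89). HOXB2, a hindbrain gene, had 0, 3, 0 and 1 counts in parental and 3, 2, 4 and 2 in knockout tumours. Its pooled ratio of 2.78 had an interval of 0.824 to 12.0, and without parental tumour 2 it was 8.46. HOXB1, at the anterior end, had 4 counts over the parental and 1 over the knockout tumours, a ratio of 0.253 (0.00513 to 2.55). So the members from HOXB2 to HOXB9 all had a knockout to parental ratio above 1, of which HOXB3, HOXB5, HOXB6 and HOXB9 passed the test.

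**Figure D2:**
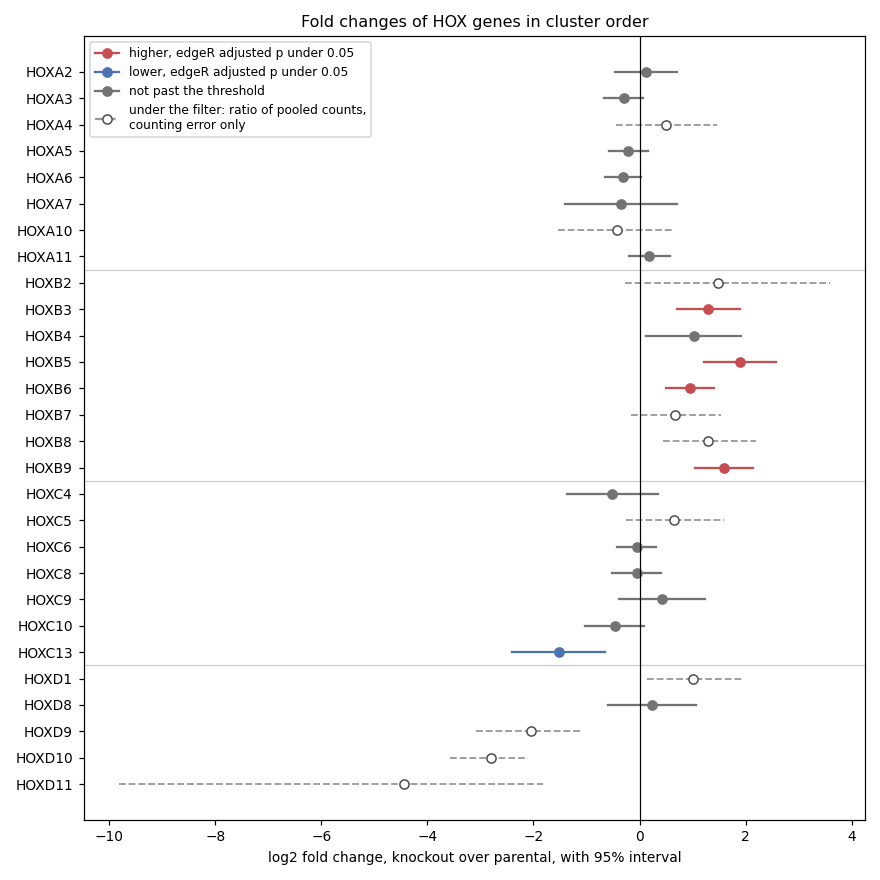
Log2 fold change, knockout over parental, of HOX genes with its 95% interval (horizontal axis), in cluster order from HOXA at the top to HOXD at the bottom. Filled points are edgeR estimates for 18 tested genes, and open points with dashed lines are pooled-count ratios for 10 genes under the filter with counting error only; the HOXB genes lie to the right of 0, while HOXC13 at -1.53 and HOXD9 to HOXD11 lie to the left.

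The HOXC cluster (chr12:53938765-54056030, plus strand, 9 genes) summed to 12.6 ± 1.03 CPM (parental) and 11.1 ± 1.92 CPM (knockout), and the groups overlapped. HOXC13, the most posterior member and a regulator of hair keratin genes, was the exception within it. It had 0.932, 1.27, 1.70 and 1.57 CPM in parental tumours and 0.187, 0.683, 0.280 and 0.747 CPM in knockout tumours. All 4 knockout tumours lay below the parental range. HOXC13 fell by 1.53 on the log2 scale (SE 0.399, edgeR adjusted p = 0.0149), from 119 pooled counts in the parental tumours to 40 in the knockout ones. Without knockout tumour 3 its log2 fold change was -1.34 and no longer past the threshold (edgeR adjusted p = 0.0515). HOXC13 (chr12:53938765-53946544) shares 7.10% of its exon bases with the antisense gene HOXC13-AS.

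None of the other 5 tested HOXC genes passed the threshold. HOXC6 and HOXC8, central genes of the thoracic region, both had a log2 fold change of -0.06, with 95% intervals of -0.42 to 0.31 and -0.52 to 0.40. HOXC4 had -0.51 (-1.36 to 0.34), HOXC9 had 0.42 (-0.38 to 1.23) and HOXC10 had -0.47 (-1.03 to 0.08). HOXC5, under the filter, had 4, 5, 6 and 3 counts in parental and 8, 5, 7 and 8 counts in knockout tumours, a ratio of 1.57 (0.840 to 3.02). HOXC11 had 3 parental and 4 knockout counts, and HOXC12 had 1 parental count and none in the knockout tumours.

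The HOXD cluster (chr2:176092891-176190907, plus strand, 9 genes) summed to 3.75 ± 1.39 CPM (parental) and 2.11 ± 0.527 CPM (knockout), and the groups overlapped at this level. Within the cluster the adjacent genes HOXD9, HOXD10 and HOXD11, posterior genes known for limb and axial patterning, had knockout over parental ratios of 0.243, 0.143 and 0.0460. Their neighbours HOXD8 and HOXD12 had ratios of 1.2 and 0.899, the latter from 17 counts in all, and the difference between neighbours was not tested. To show how these neighbours compare in sequence, the bases upstream of the RefSeq starts of HOXD8, HOXD10, HOXD11 and HOXD12 are printed here (GRCh38.p14, plus strand, 5′ to 3′), as far as the first base that GENCODE annotates as exon. Capitals mark matches on either strand to the motifs searched: TATAAA (the TATA box), CCAAT (the CCAAT box), GGGCGG (the GC box), TGANTCA (the AP-1 element) and TGATNNAT (an element bound by HOX and PBX proteins together).
HOXD8, chr2:176129455-176129693: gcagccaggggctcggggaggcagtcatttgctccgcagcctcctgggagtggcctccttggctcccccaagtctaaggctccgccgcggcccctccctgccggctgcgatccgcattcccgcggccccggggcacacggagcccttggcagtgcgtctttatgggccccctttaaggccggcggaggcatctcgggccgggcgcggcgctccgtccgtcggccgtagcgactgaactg
HOXD10, chr2:176116528-176116578: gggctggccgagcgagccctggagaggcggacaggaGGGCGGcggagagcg
HOXD11, chr2:176107030-176107279: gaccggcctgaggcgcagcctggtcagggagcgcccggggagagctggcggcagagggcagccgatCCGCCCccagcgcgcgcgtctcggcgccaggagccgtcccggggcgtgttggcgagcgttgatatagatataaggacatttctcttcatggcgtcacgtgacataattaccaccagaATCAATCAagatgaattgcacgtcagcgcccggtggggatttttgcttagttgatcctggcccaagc
HOXD12, chr2:176099545-176099729: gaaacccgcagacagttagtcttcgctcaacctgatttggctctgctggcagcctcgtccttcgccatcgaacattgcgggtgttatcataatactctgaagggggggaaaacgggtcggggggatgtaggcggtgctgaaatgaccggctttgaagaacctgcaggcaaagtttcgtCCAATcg
The capitals are a GC box in HOXD10, a GC box and a HOX-PBX element in HOXD11 and a CCAAT box in HOXD12, and the HOXD8 stretch has no match. The HOX-PBX match of HOXD11 starts 67 bases before the start. Over the full 250 bases before each start, HOXD10 also has a CCAAT match 59 bases before it.

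The RefSeq table held 27 such 250-base windows for 20 of the 39 HOX genes, and 35116 windows in all. The called genes HOXB3, HOXB5, HOXB6, HOXB9 and HOXC13 had none, nor had HOXD9, so the shares below do not describe those genes. HOXA3 gave the most windows, and HOXC4 and HOXC5 had the same one. CCAAT occurred in 66.7% of the HOX windows and 32.0% of all windows, and GGGCGG in 48.1% and 42.6%. TATAAA was in 18.5% of HOX windows against 10.7% of all, and TGATNNAT in 11.1% against 6.47%. TGANTCA was in none of the 27 and in 6.57% of all. The median number of CpG dinucleotides was 19 in the HOX windows and 11 in all. By gene the number was 28 for HOXD8, 23 for both HOXD10 and HOXD11, and 16 for HOXD12. These matches describe letters only, and windows of 1 gene or of overlapping transcripts share sequence.

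HOXD10 had the most reads of the 3 genes. Its counts were 19, 9, 63 and 43 in parental tumours and 3, 1, 7 and 8 in knockout tumours. The lowest parental tumour, with 9 counts, was above the highest knockout tumour, with 8, so the groups were apart by a narrow margin. The pooled counts of 134 and 19 gave a ratio, parental over knockout, of 6.98 (exact 95% interval 4.30 to 11.9, counting error only), with an exact two-sided permutation p of 0.0286, the smallest that 4 against 4 tumours can give. In the alternative fit with no filter on low counts HOXD10 was lower by a log2 fold change of -2.77 (edgeR adjusted p = 0.000173). In that fit 8.19% of 33657 genes were called lower and 6.37% higher. HOXD10 lies at chr2:176108790-176119942.

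HOXD11, next to it at chr2:176104216-176109754, had 7, 4, 8 and 3 counts in parental tumours and 0, 0, 0 and 1 in knockout tumours. Its single knockout count came from tumour 4, and all parental tumours were above it. The ratio of pooled counts, 22 over 1, was 21.8 with an interval of 3.52 to 898, and the exact two-sided permutation p was 0.0286. Without a filter the edgeR adjusted p for HOXD11 was 0.00274. HOXD10 and HOXD11 share exon bases on the same strand, 16.8% of those of HOXD10 and 21.4% of those of HOXD11. Reads falling there cannot be told apart by gene.

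HOXD9 (chr2:176122720-176124937), whose exons overlap no other annotated gene, had 10, 3, 27 and 10 counts in parental tumours and 4, 2, 4 and 2 in knockout tumours. Parental tumour 2, with 3 counts, fell inside the knockout range, and the exact two-sided permutation p was 0.0857. The pooled counts of 50 and 12 gave a ratio, parental over knockout, of 4.12 (2.16 to 8.50), and without a filter the log2 fold change was -2.01 (edgeR adjusted p = 0.0139). Expressed as knockout over parental, the ratio of HOXD9 was 0.243, and 0.390 without parental tumour 3, which had the most HOXD9 and HOXD10 counts. The posterior HOXD genes together held 2.46 ± 1.53 CPM (parental) and 0.470 ± 0.158 CPM (knockout), and the groups did not overlap.

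HOXD8, the only HOXD gene that passed the filter, had 81 parental and 96 knockout counts and a log2 fold change of 0.23 (95% interval -0.60 to 1.06). HOXD12 had 9 parental and 8 knockout counts, a knockout over parental ratio of 0.899 (0.302 to 2.62). HOXD1, at the anterior end, had 1, 4, 7 and 5 counts in parental tumours and 3, 11, 11 and 9 in knockout tumours. Its pooled ratio was 2.02 (1.10 to 3.86), the groups overlapped and the exact two-sided permutation p was 0.114. HOXD3 had 4 parental counts and 1 knockout count, and HOXD4 had 7 and 8. With AC009336.2 on the same strand, HOXD4 shares 80.5% of its exon bases and HOXD3 62.2%. HOXD1 shares 58.1% with HAGLR and AC009336.3 on the other strand. Where reads there were left out as ambiguous, the counts of these genes are too low.

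**Figure D3:**
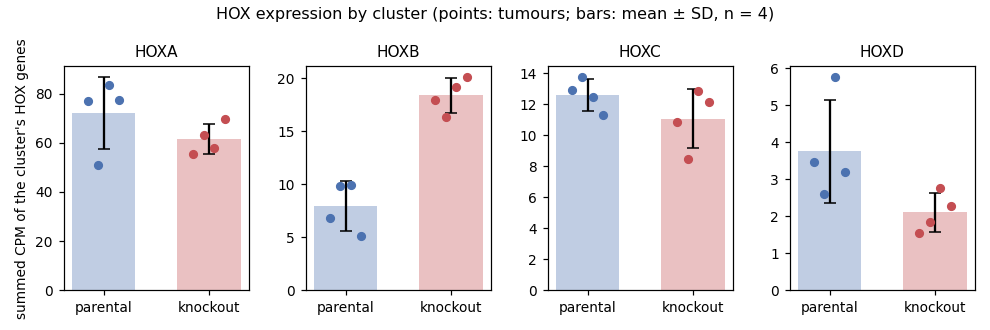
Summed CPM of the HOX genes of each cluster (vertical axis, a separate linear scale from 0 in each panel) in parental and knockout tumours. Points are tumours and bars the mean ± SD (n = 4); the groups are apart for HOXB, at 7.94 and 18.4 CPM on average, and overlap for HOXA, HOXC and HOXD.

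Read by paralogue group, genes with the same number had different values in different clusters. In group 9, HOXB9 rose (log2 fold change 1.59), HOXC9 had 0.42 and did not pass the threshold, and HOXD9 had 50 parental and 12 knockout counts. In group 10, HOXC10 had -0.47 without passing the threshold, HOXA10 had 19 and 14 counts, and HOXD10 had 134 and 19. In group 11, HOXA11 had 0.18 while HOXD11 had 22 and 1 counts. Group 13 had counts only in HOXC13. The difference between paralogues was not tested. Shared sequence was small: of the 39 genes, 2 (HOXB3 and HOXD3) had any 50-base exon window in common with a HOX gene of another cluster, 0.170% and 0.372% of their windows.

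Non-coding RNAs of the clusters were mostly low. Of 19 found, 13 had counts, 4 passed the filter and none was called, with a median log2 fold change of -0.33. These 4 were HOXA-AS2 (740 parental and 553 knockout counts), HAGLR (353 and 292), HOXA11-AS (97 and 139) and HOXC-AS2 (48 and 31). Below the filter, HOXB-AS3, the antisense neighbour of HOXB5 and HOXB6, had 0, 2, 2 and 1 counts in parental and 4, 5, 3 and 3 in knockout tumours. HOXC13-AS had 3, 2, 5 and 2 counts in parental and 1, 0, 1 and 0 in knockout tumours. In both, the groups did not overlap, in the direction of the HOX genes on the other strand. Among the genes tested, which exclude this pair, the groups did not overlap in 29.3%. HOXA-AS3, also below the filter, had more reads (42 parental and 17 knockout counts), and its groups overlapped. The strand setting of the counts is not given in the sources used here. HOTAIR and HOTTIP were at 0 in all tumours.

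Of 20 genes found from a list of cluster neighbours, 16 passed the filter, with a median log2 fold change of 0.07. Among those tested, 2 rose and 2 fell, beside 27% of all genes called. Around HOXA, SNX10, a sorting nexin, rose from 391 to 1445 counts over the tumours (log2 fold change 1.90). SKAP2, HIBADH and TAX1BP1, also listed for HOXA, did not pass the threshold, at 0.08, 0.12 and -0.23. The distance of the listed genes from the clusters, and whether each lies outside the cluster ends, was not measured. Beside HOXC, NFE2 rose by 0.77, while CBX5 (heterochromatin protein 1 alpha) and SMUG1, a DNA repair glycosylase, fell by 0.40 and 0.28 on the log2 scale. Beside HOXB, none of SKAP1, SNX11 and CALCOCO2 passed the threshold, at 0.11, 0.03 and 0.19. MTX2 and LNPK, which flank HOXD, did not pass it either.

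Some proteins bind DNA together with HOX factors. Of 11 such cofactors of the TALE class (PBX, MEIS, PKNOX and TGIF proteins), 10 passed the filter, 1 rose, 3 fell and 6 did not pass the threshold, beside 27% of all genes called, with a median log2 fold change of -0.09. PBX4 rose from 18 to 77 pooled counts (log2 fold change 2.09, edgeR adjusted p = 0.00380). Its parental counts of 3, 2, 9 and 4 were under the filter's minimum count of 10, so PBX4 was tested only through its knockout counts. MEIS2 fell from 39.0 ± 2.43 to 22.6 ± 1.85 CPM (means with SD, n = 4), which is -0.79 on the log2 scale. MEIS1, its relative, fell from 11.8 ± 1.38 to 8.91 ± 0.726 CPM. TGIF2, a repressor of the same class, fell from 30.0 ± 2.78 to 17.4 ± 1.51 CPM. PBX2 and PBX3 did not pass the threshold.

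Of 20 Polycomb genes, all tested, 1 rose and 2 fell, beside 27% of all genes called, with a median log2 fold change of 0.02. EZH1, a histone methyltransferase of the repressive complex, rose by 0.62 on the log2 scale, and CBX2 and PCGF2, subunits of the other Polycomb complex, fell by 0.55 and 0.30. EZH2, EED and SUZ12 did not pass the threshold. Of 19 trithorax-type activators, all tested, none rose and 1 fell, beside the same 27%, with a median of -0.07. It was MEN1 (menin, which ties KMT2A to HOX genes), at -0.44 (edgeR adjusted p = 0.00428).

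Of 18 retinoid and CDX genes, 10 passed the filter, 1 rose and 5 fell, beside 27% of all genes called, with a median log2 fold change of -0.41 beside 0.00 over all genes. CYP26B1, which degrades retinoic acid, rose from 8.91 ± 2.78 to 19.7 ± 1.21 CPM. ALDH1A1, which makes retinoic acid, fell from 234 ± 96.3 to 41.6 ± 6.73 CPM. Of the other retinoic acid synthesis genes, ALDH1A3 had a log2 fold change of -0.06 and did not pass the threshold. ALDH1A2, under the filter, had 0, 4, 1 and 4 counts in parental and 7, 10, 12 and 10 in knockout tumours, so every knockout tumour was above every parental one. The binding protein gene CRABP2 fell by 2.82 on the log2 scale, and the uptake receptor gene STRA6 fell by 1.25. The receptors RARA and RARG fell by 0.74 and 1.06. CDX1, CDX2 and CDX4, homeobox activators of posterior HOX genes, were at 0 in all tumours. A link between these genes and the HOX values was not tested.

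**Figure D4:**
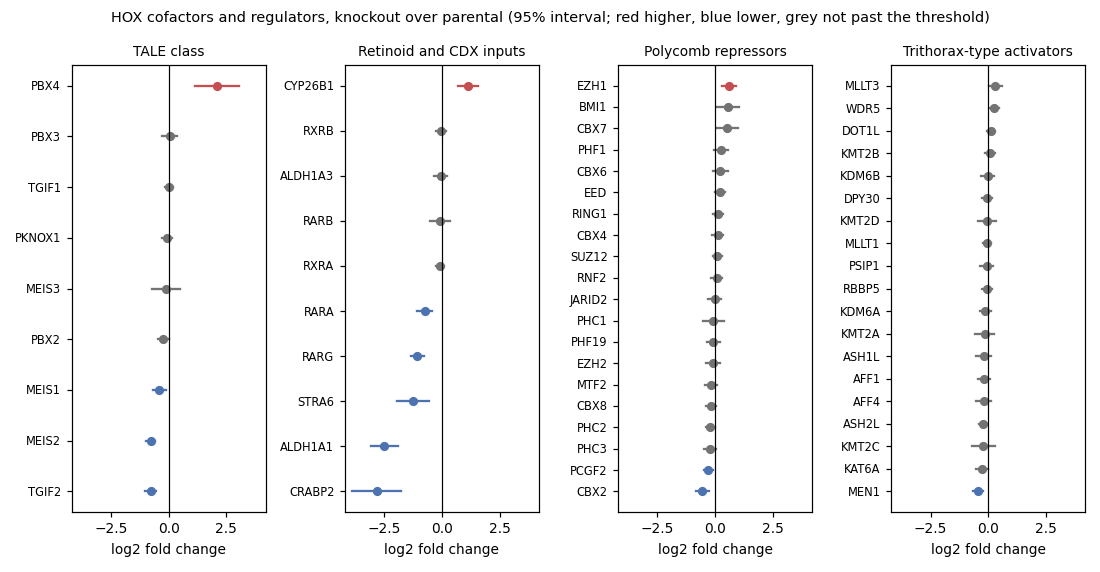
Log2 fold change, knockout over parental, with 95% interval (horizontal axis) of the tested HOX cofactors, retinoid genes, Polycomb genes and trithorax-type genes. Each point is 1 gene, red where higher and blue where lower at an edgeR adjusted p under 0.05 and grey otherwise; the retinoid panel has 5 blue points and 1 red point among 10, the Polycomb panel 2 and 1 among 20.

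Homeobox genes related to HOX but outside the clusters had 6 of 21 members in the test, and 8 of the 21 were at 0 in all tumours. Of those tested, 2 were higher and 1 lower, beside 27% of all genes called, with a median log2 fold change of -0.14. PDX1, a pancreas and duodenum regulator, rose from 29 to 87 pooled counts (log2 fold change 1.59), and DLX4 rose by 0.61. The parental counts of PDX1 were 7, 7, 6 and 9, so it passed the filter only through its knockout counts. DLX5, a regulator of bone and craniofacial development, fell by 2.22 on the log2 scale, from 239 to 50 pooled counts.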

How the data were processed

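Counts were deposited by the authors as raw read counts per gene symbol, 1 table per tumour, and replicates were not pooled. Per the submitters' processing notes, TopHat2 2.1.1, HTSeq 0.11.0 and the build hg38 were used. The annotation, strand setting and any removal of mouse reads are not given in the sources used here. Reads listed as ambiguous between genes were 3.98% to 4.31%; how overlapping genes were counted was not tested.

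The 5 summary lines that name no gene were left out (genes held 79.1% to 85.2% of reads). The fit used edgeR 4.0.16 in R 4.3.3: filterByExpr (minimum count 10, minimum total 15), TMM scaling, the quasi-likelihood F-test of 4 knockout against 4 parental tumours, and Benjamini-Hochberg adjustment over 16219 genes, with calls at an adjusted p under 0.05. On simulated counts for these 16219 genes the fit recovered 83% of 100 genes changed 2-fold and 99% of 100 changed 4-fold. The changed genes were drawn at random from all genes tested, with the typical spread for their level. These percentages therefore do not give the recovery of genes with as few reads as most HOX genes.

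HOX genes under the filter are given as counts with pooled ratios (exact Clopper-Pearson 95% intervals, counting error only, since reads lacking molecular identifiers can be copies of 1 molecule) and exact permutation tests where they had at least 10 counts in all (12 genes). CPM uses the TMM-scaled library, and RPKM divides it by the exon length of GENCODE 29 (GRCh38). That length includes bases shared with other genes, so RPKM can be too low where reads there were left out as ambiguous. Upstream sequences are from RefSeq (GRCh38.p14). Any 2 libraries of a group differed beyond sampling noise (chi-square per degree of freedom at least 9.05). Values of 2 genes are not reported here, though counts and sums over genes include them; tumour values are given for called or non-overlapping genes and for low genes with at least 10 counts in a group, and list members are named where called, up to 6 per list. Members and lists were chosen with earlier results of these data known.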

Additional observations from a re-analysis of the deposited data

Results flagged for a closer look

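Among 68 groups of 4 tumours tested, 5 had 1 tumour far from the other 3 by Dixon's test at 95%, and chance gives about 1 in 20. HOXB3 in parental tumour 3 was at 2.01 CPM (45 counts), with the others at 0.935 to 1.04, and it was still below every knockout tumour. HOXA5 in parental tumour 2 was at 8.10 CPM, with the others at 12.4 to 12.7. The other 3 rest on few counts. HOXA4 in parental tumour 3 was at 0.357 CPM (8 counts), with the others at 0.146 to 0.170. HOXA10 in parental tumour 4 was at 0.0425 CPM (1 count), with the others at 0.268 to 0.311. HOXD11 in knockout tumour 4 was at 0.0467 CPM (1 count), with the others at 0.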

How the results depend on the processing

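HOXB3, HOXB5, HOXB6 and HOXB9 were called higher in each of 16 alternatives (RLE, upper-quartile or no composition scaling, DESeq2, limma-voom, 2 other filters, the replicate block, and leaving out each tumour). With 1 tumour left out, 4 to 5 HOX genes were called higher (HOXB8 without parental tumour 3) and 1 to 3 lower. With no filter on low counts 4 were lower (HOXC13, HOXD9, HOXD10 and HOXD11), because more genes were tested. With CPM of at least 1 in at least 4 tumours 0 were lower, because HOXC13 was not among the genes tested. HOXD10 passed the filter and was called lower without parental tumour 2 and without each knockout tumour in turn, and HOXA3 without parental tumour 2 (-0.45). With a tumour left out the filter asks for fewer passing tumours. HOXD10 then passed it through its parental counts and HOXB8 through its knockout counts, so these calls are no separate support. All genes called numbered 4385, and 3501 to 4721 with 1 tumour left out. Upper-quartile scaling moved the higher share of calls from 47.9% to 54.1%, and no scaling moved the median of all genes by more than 0.0413.

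Of 284 alternative values for 18 tested HOX genes, 277 kept their direction and call. HOXC13 lost its call without knockout tumour 3 (-1.34), and the cause was not tested. Small changes reversed: with 1 tumour left out HOXA2 ranged from -0.0722 to 0.263, HOXC6 from -0.159 to 0.0314, HOXC8 from -0.131 to 0.0669 and HOXD8 from -0.0102 to 0.560. The tumours whose absence turned the sign were parental 2 for HOXA2, knockout 2 for HOXC6, parental 1 and knockout 2 for HOXC8, and parental 4 for HOXD8. The cluster ratios with 1 tumour left out were 0.776 to 0.899 for HOXA, 2.07 to 2.53 for HOXB, 0.832 to 0.947 for HOXC and 0.505 to 0.684 for HOXD. The ratio of HOXB2 was 8.46 without parental tumour 2, and that of HOXD11 was 0 without knockout tumour 4.

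Replicate numbers are shared by the groups, but same-numbered tumours had correlations of deviations of -0.187 to 0.0863 and did not all correlate best with their own number. With the replicate block 3871 genes were called, with the same 4 HOX genes higher and HOXC13 lower. Low counts limit HOXA4, HOXA9, HOXA10, HOXB1, HOXB2, HOXB7, HOXB8, HOXC5, HOXC11, HOXC12 and most HOXD genes: differences there were not detectable unless large.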
